A study of Mus musculus with 21 samples.

Results

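VDR binding in the small intestinal (SI) crypt was set beside open chromatin of the same compartment, and each site was placed in 1 of 3 classes. A VDR-binding peak that overlapped an ATAC-seq peak by at least 1 bp was bound-and-open, a VDR-binding peak with no such overlap was bound-and-closed, and an ATAC-seq peak with no VDR-binding peak was open-unbound. The pooled SI crypt peak lists held 12702 VDR sites and 74734 ATAC sites, and gave 6397 bound-and-open, 6305 bound-and-closed and 67286 open-unbound sites. Together these were 79988 regions, set against 232606 pooled peaks of all compartments and both assays in the series. The SI crypt samples were 4 VDR ChIP-seq and 3 ATAC-seq replicates of the 21 samples, and the others came from SI villus and colon.

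All samples were from C57BL/6J mice. For ChIP-seq, mice of 4 to 6 weeks of age per the labels were injected with 1,25(OH)2D3, the hormonal form of vitamin D, at 10 ng/g body weight and killed after 1 h. Chromatin of the epithelium was precipitated with a mix of 2 anti-VDR antibodies. The labels give an age of 90 days for the ATAC-seq mice. The labels and the study's methods disagree on the ages and on whether the ATAC-seq mice received the hormone, and do not say whether any mouse gave both kinds of sample. The protocol speaks of 3 treated mice without saying whether they were pooled. No ChIP-seq sample without hormone was part of the comparison, so hormone-dependent binding cannot be told apart from binding that was there before. Crypts were separated from villi of the proximal SI by size, and each preparation was a mixture of crypt cell types.

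VDR is a nuclear receptor that binds DNA mostly as a partner of the retinoid X receptors. Its best known element, called DR3, is a direct repeat of a hexamer with 3 bases between the copies. Binding at promoters and distal elements brings coactivators to genes such as those for calcium absorption and for breakdown of the hormone itself. The crypt holds stem cells, dividing progenitors and secretory Paneth cells, while the villus above it carries absorptive enterocytes. ATAC-seq marks DNA that the Tn5 transposase can reach, so a site outside ATAC-seq peaks is called closed here only in that sense.

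The sequences of 8 chosen VDR sites, 200 bp centred on the summit from mm9 and written along the plus strand, are given as examples. They do not stand for their classes as a whole. The first set holds bound-and-open sites, shown for strong binding or a known target, with the part that comes nearest to DR3 in capitals (DR4, a repeat with 4 bases between the copies, in Ncor1).
Bach1: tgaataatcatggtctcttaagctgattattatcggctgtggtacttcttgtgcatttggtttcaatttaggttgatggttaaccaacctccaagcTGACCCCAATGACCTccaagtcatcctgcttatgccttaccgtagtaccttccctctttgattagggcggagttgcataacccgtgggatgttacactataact
Ncor1: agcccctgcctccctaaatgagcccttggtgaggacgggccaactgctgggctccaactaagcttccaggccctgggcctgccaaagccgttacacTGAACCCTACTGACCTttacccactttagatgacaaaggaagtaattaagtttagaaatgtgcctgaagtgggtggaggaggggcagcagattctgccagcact
Crat: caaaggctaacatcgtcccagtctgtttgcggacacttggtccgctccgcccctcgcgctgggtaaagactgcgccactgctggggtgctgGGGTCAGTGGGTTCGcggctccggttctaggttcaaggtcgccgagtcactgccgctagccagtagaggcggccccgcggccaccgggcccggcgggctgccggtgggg
Cyp24a1: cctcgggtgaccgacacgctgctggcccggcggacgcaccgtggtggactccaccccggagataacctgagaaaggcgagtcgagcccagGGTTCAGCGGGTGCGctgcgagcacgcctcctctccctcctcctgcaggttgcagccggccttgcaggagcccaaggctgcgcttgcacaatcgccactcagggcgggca
Ptprj: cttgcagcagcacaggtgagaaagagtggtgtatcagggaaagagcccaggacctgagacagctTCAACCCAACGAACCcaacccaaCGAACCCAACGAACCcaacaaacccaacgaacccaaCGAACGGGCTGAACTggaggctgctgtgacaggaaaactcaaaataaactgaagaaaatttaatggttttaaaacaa
The Bach1 and Ncor1 sites carried exact matches, the Crat promoter a match with 1 mismatch, and Cyp24a1 and Ptprj only matches with 2 mismatches. The second set holds bound-and-closed sites with an exact DR3 match in capitals, a match that most sites of the class lacked (shares below).
Ppard: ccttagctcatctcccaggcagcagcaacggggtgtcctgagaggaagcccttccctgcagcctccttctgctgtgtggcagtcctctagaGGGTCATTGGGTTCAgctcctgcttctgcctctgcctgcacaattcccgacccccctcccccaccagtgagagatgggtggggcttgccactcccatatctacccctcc
Cebpb: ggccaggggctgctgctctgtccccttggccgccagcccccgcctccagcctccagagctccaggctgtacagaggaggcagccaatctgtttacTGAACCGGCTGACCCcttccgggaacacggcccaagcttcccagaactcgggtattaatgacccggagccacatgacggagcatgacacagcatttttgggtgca
Cldn15: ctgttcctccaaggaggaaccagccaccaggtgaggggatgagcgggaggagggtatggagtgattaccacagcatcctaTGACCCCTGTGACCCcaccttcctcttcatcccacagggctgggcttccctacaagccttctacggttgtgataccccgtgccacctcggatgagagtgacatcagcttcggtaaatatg
The windows lay at chr16:87681551-87681750 (Bach1, intergenic), chr11:62308254-62308453 (Ncor1, intron), chr2:30270846-30271045 (Crat, promoter), chr2:170322815-170323014 (Cyp24a1, promoter), chr2:90328268-90328467 (Ptprj, intron), chr17:28417984-28418183 (Ppard, intron), chr2:167590673-167590872 (Cebpb, intergenic) and chr5:137450567-137450766 (Cldn15, intron). Names give the nearest gene start and intron means inside any gene body. The Ncor1 window, upstream of that start, thus need not lie in Ncor1. The promoter window of Crat held 20 CpG dinucleotides and that of Cyp24a1 held 18, against 2 to 8 in the other windows. In this set the exact repeats sat in CpG-poor DNA and the promoters held imperfect ones.

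Replicate 1 of the SI crypt VDR ChIP-seq stood apart from replicates 2 to 4. It had 13381 peaks, against 2188, 1136 and 2480 in the other replicates, from 3100376 fragments after removal of duplicates, against 9021688, 5819723 and 7679427. Its redundancy was 0.71, against 0.30 to 0.50. Of its bound-and-open peaks 68.5% lay within 1 kb of a transcription start site (TSS), against 32.0%, 27.1% and 32.6% in replicates 2 to 4. The part of duplication and depth in this was not tested, and results on pooled sites are given with and without the sites that only replicate 1 called. Leaving those out, 3564 bound-and-open, 3783 bound-and-closed and 70688 open-unbound sites remained. Of the remaining VDR sites 1736 bound-and-open and 2762 bound-and-closed ones were called in no single sample. They came only from the pooled list, which still held the reads of replicate 1. Sites called in at least 2 of the 4 samples numbered 1458 bound-and-open and 688 bound-and-closed.

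The open chromatin was set against marker genes of the cells the preparation could hold. An ATAC peak within 1 kb of a TSS was found at 57.9% of the 22367 protein-coding genes. It was found at 21 of 22 intestinal stem cell genes, among them Lgr5 and Olfm4, at 15 of 16 epithelial genes, at 16 of 20 enterocyte genes and at 8 of 13 Paneth cell genes. Goblet cell genes had 7 of 11, tuft cell genes 6 of 10 and enteroendocrine genes 8 of 16, near the share of all genes. The alpha-defensin family of Paneth cells had 0 of 12. Immune genes had 1 of 15, genes of stroma, muscle, vessel and nerve had 5 of 17, and colon identity genes had 3 of 10. The stem cell and epithelial promoters were thus open in these preparations and nearly all immune promoters were not. The enterocyte promoters were open as well, so crypt and villus cells cannot be told apart from these markers.

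Bound-and-open sites lay at gene starts more often than bound-and-closed sites. Promoters, taken as 1 kb to either side of a TSS, held 51.7% of bound-and-open sites and 10.0% of bound-and-closed sites. Introns held 20.8% of bound-and-open sites, against 41.2% of bound-and-closed sites, and intergenic DNA held 24.2%, against 38.3%. Exons held 3.31% of the open and 10.6% of the closed class. The median distance to a TSS was 767 bp in the bound-and-open class and 15880 bp in the bound-and-closed class, but 6770 bp and 13545 bp without replicate-1-only sites. Among open-unbound sites 21.7% were at promoters. Left without the replicate-1-only sites, the promoter share was 34.4% in the bound-and-open and 8.59% in the bound-and-closed class, and in sites of at least 2 samples it was 42.1% and 9.88%. Without replicate-1-only sites 28.3% of bound-and-open sites were intronic and 33.9% intergenic, so most of them lay outside promoters. Of the 3937 VDR sites at promoters 60.6% were called by replicate 1 alone, so the size of the promoter share in the open class rested on that sample.

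**Figure D1:**
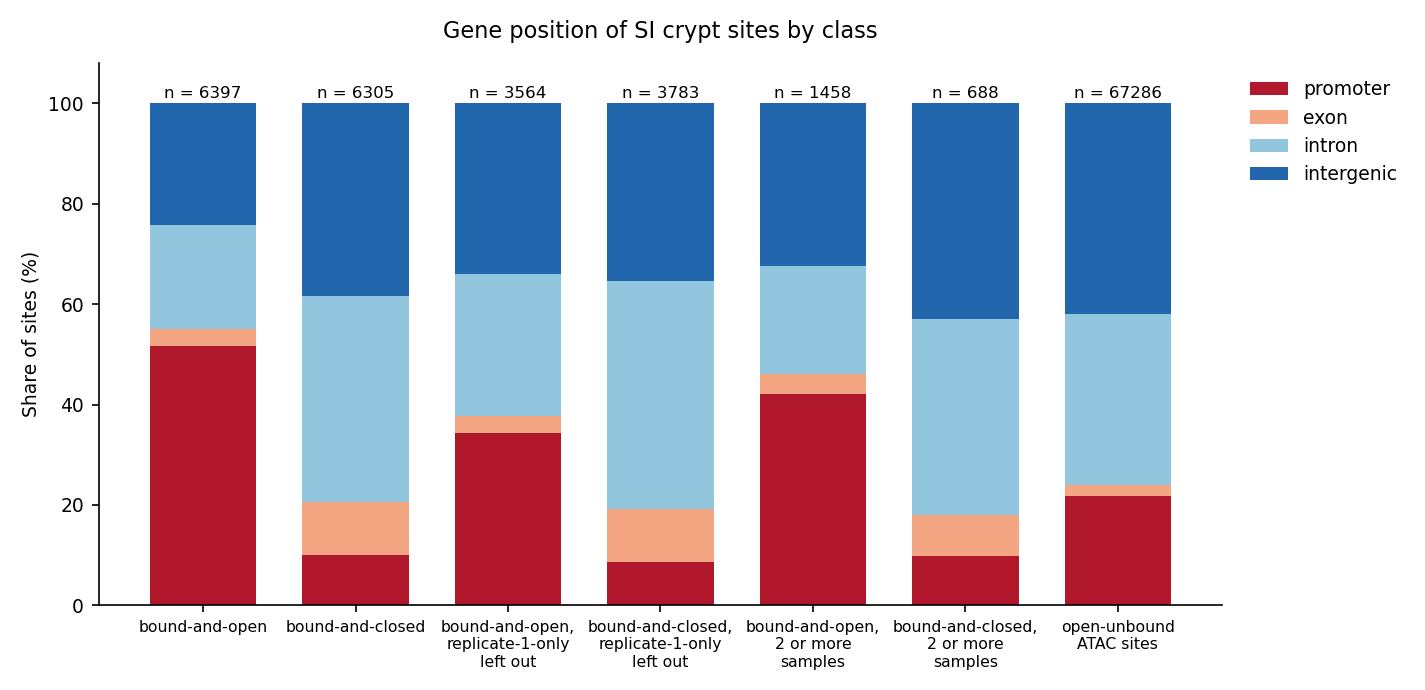
Share of SI crypt sites (%) within 1 kb of a TSS (promoter), in exons, in introns and in intergenic DNA for each class, with the number of sites above each bar. Bound-and-open sites had the largest promoter share in each of the 3 pairs of bars (51.7%, 34.4% and 42.1%), and bound-and-closed sites kept 8.59% to 10.0%.

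Seen from the gene start, 84.0% of promoter VDR sites were open, against 33.9% of intronic, 39.1% of intergenic and 24.1% of exonic VDR sites. Without replicate-1-only sites these shares were 79.0%, 37.1%, 47.4% and 23.0%. Sites called in at least 2 samples were open in 90.0% of cases at promoters, 53.9% in introns, 61.5% in intergenic DNA and 50.9% in exons. A site called by more samples was more often open: 38.6% of the sites called in no single sample, 52.9% of those called in 1 sample, 64.2% in 2, 68.8% in 3 and 75.3% in 4. Bound-and-closed sites were not only weak ones, since sites called in all 4 samples had a median fold enrichment of 14.1 in the bound-and-open class (353 sites) and 14.6 in the bound-and-closed class (116 sites). Fold enrichment here is the peak height over the local background of the same library, as no input library was used in peak calling.

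The samples were then used as the replicates. In replicates 1 to 4, promoters held 68.5%, 32.0%, 27.1% and 32.6% of bound-and-open peaks, against 10.7%, 12.5%, 14.6% and 16.1% of bound-and-closed peaks. The open class was higher in each sample and the classes did not overlap. The difference was 26.6 ± 21.0 percentage points (SD, n = 4; exact two-sided sign-flip test p = 0.125, adjusted p = 0.229 over 11 tests), and 0.125 is the smallest p that 4 samples allow. Without replicate 1 it was 16.2 points. Median fold enrichment was 5.89, 8.59, 7.07 and 6.60 in bound-and-open peaks, against 5.02, 7.36, 6.32 and 5.88 in bound-and-closed peaks. Open peaks were stronger in 4 of 4 samples, by 0.20 ± 0.036 on the log2 scale (SD, n = 4; exact sign-flip p = 0.125, adjusted p = 0.229). No result over samples passed 0.05 after adjustment, and with these sample numbers none could. The labels do not say whether replicates came from separate mice, so these p-values measure only the spread between samples.

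CpG content followed the promoters. The median CpG ratio at the summit, observed over expected CpG dinucleotides in 200 bp, was 0.782, 0.302, 0.298 and 0.314 in bound-and-open peaks of replicates 1 to 4, against 0.423, 0.256, 0.227 and 0.226 in bound-and-closed peaks. It was higher in the open class in 4 of 4 samples, by 0.141 ± 0.146 (SD, n = 4; exact sign-flip p = 0.125, adjusted p = 0.229), and by 0.069 without replicate 1. In peaks outside promoters the difference was -0.013, in an alternative chosen after seeing the data. The CpG difference between the classes was thus seen with promoters included and not outside them.

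**Figure D2:**
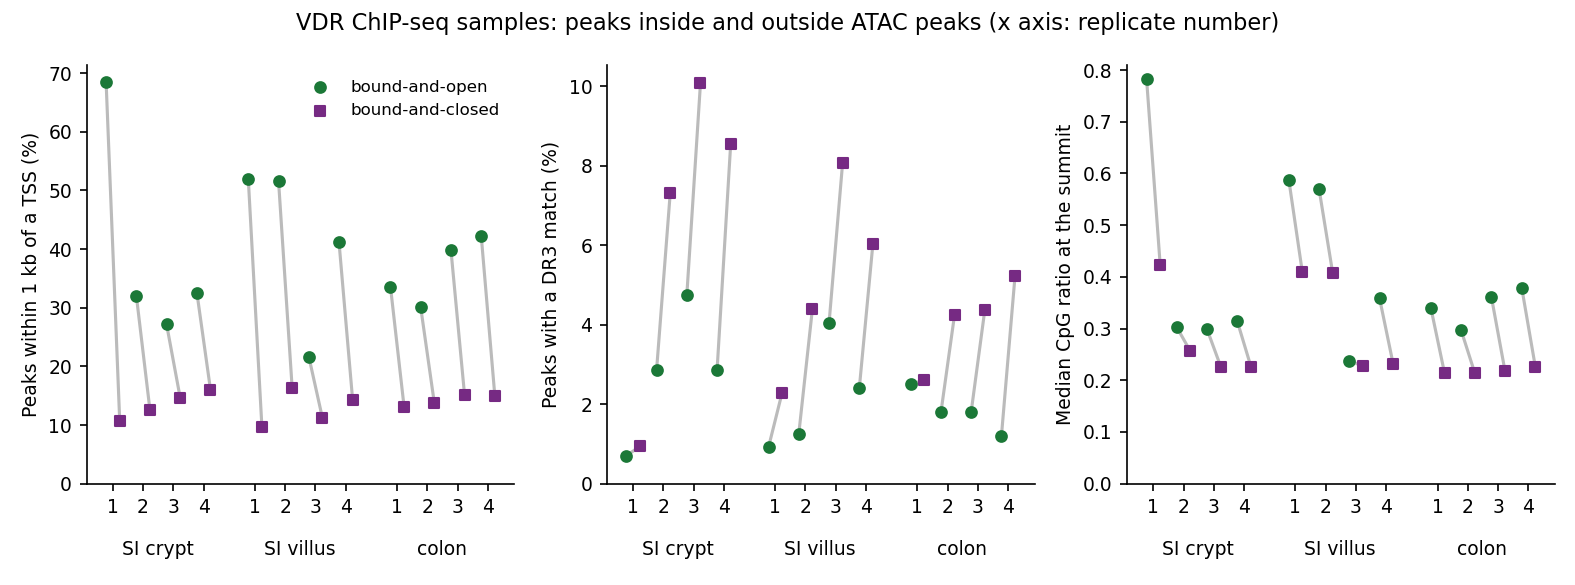
Each pair of points is a VDR ChIP-seq sample, with bound-and-open peaks (circles) left of bound-and-closed peaks (squares): share within 1 kb of a TSS (%), share with a DR3 match (%) and median CpG ratio. SI crypt replicate 1 sits highest for promoter share (68.5%) and CpG ratio (0.782), and the share with an exact DR3 was lower in the open class in each of the 12 samples. With 1 mismatch allowed, which is not drawn, it was higher in the open class in replicate 1 of each compartment.

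Exact DR3 matches were more frequent in the bound-and-closed class. An exact match in the 200 bp centred on the summit was found in 1.13% of bound-and-open sites (72 of 6397) and in 3.52% of bound-and-closed sites (222 of 6305). Without replicate-1-only sites the shares were 1.80% and 5.29%, and among sites of at least 2 samples they were 3.09% (45 of 1458, Wilson 95% interval 2.31% to 4.10%) and 12.4% (85 of 688, 10.1% to 15.0%). Outside promoters, sites of at least 2 samples had 3.79% and 13.2%. Open-unbound sites had 0.0342% (23 of 67286), and the 200 bp at gene starts had 0.0268% (6 of 22367). The match was thus rare in accessible DNA without VDR and most frequent at recurrent VDR sites outside ATAC peaks. With 1 mismatch allowed, sites of at least 2 samples had 18.6% in the bound-and-open and 36.5% in the bound-and-closed class, against 1.16% of open-unbound sites and 0.961% of gene starts. With 2 mismatches allowed they had 50.9% and 64.2%, against 14.5% and 11.2%. Over all sites, however, the order turned with 2 mismatches allowed, with 31.5% of bound-and-open and 28.1% of bound-and-closed sites, and it did so without replicate-1-only sites as well (40.5% and 36.6%). Intervals cover counting error only, and sites of the same library are not replicates.

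In the samples, the DR3 share was 0.70%, 2.87%, 4.76% and 2.87% of bound-and-open peaks in replicates 1 to 4, against 0.95%, 7.31%, 10.1% and 8.56% of bound-and-closed peaks. It was lower in the open class in 4 of 4 samples, by -3.93 ± 2.51 percentage points (SD, n = 4; exact sign-flip p = 0.125, adjusted p = 0.229). Without replicate 1 the difference was -5.15 points. Replicate 1 had the lowest share in both classes, and its classes differed least. Counting only peaks outside promoters, the mean difference was -4.07 points and replicate 1 went the other way (exact sign-flip p = 0.25). With 1 mismatch allowed the mean difference was -5.65 points (exact sign-flip p = 0.25). Replicate 1 again went the other way, with 5.37% of bound-and-open and 4.37% of bound-and-closed peaks.

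**Figure D3:**
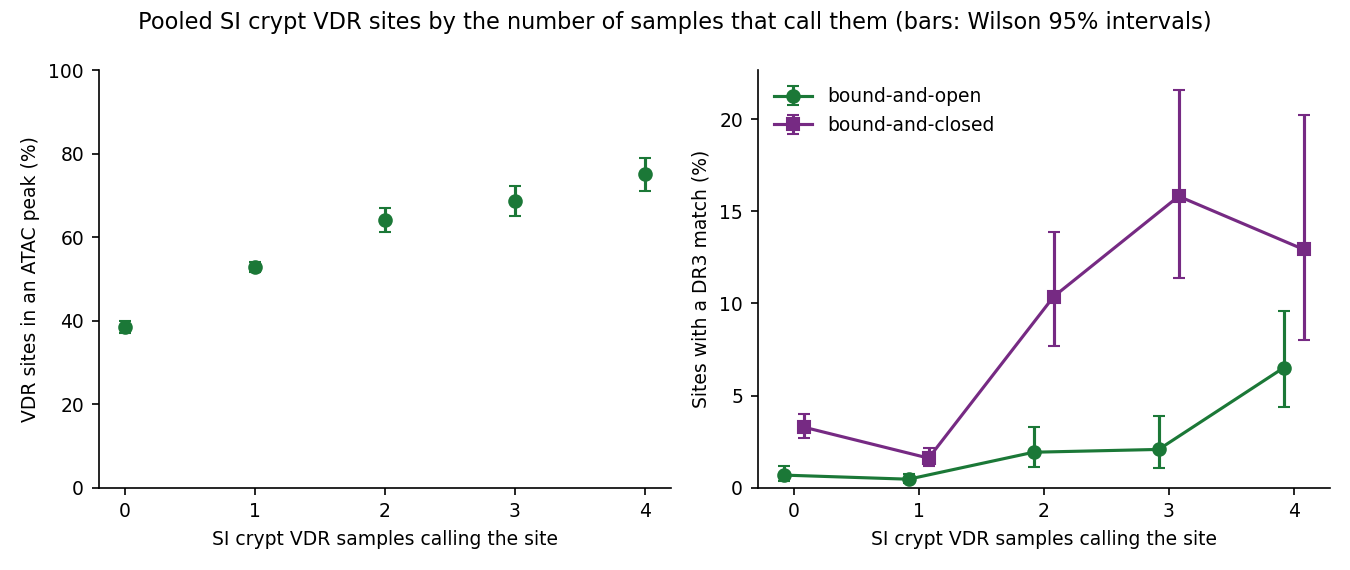
Left, share of pooled SI crypt VDR sites inside an ATAC peak (%) by the number of the 4 samples that call the site. Right, share of sites with an exact DR3 match (%) in the bound-and-open (circles) and bound-and-closed (squares) class; bars are Wilson 95% intervals. The open share was 38.6% at 0 samples and 75.3% at 4, and the DR3 share of closed sites reached 15.8% at 3 samples.

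Other factors' motifs separated the classes in another way. Outside promoters, among sites of at least 2 samples, TGANTCA of AP-1 was in 12.0% of bound-and-open and 6.13% of bound-and-closed sites, AGATAA of GATA factors in 15.6% and 9.03%, and CCAATCA of NFY in 4.15% and 1.13%. DR4 was in 2.84% and 4.19%, with intervals of 1.92% to 4.20% and 2.88% to 6.07% that overlapped. Open-unbound sites outside promoters had AP-1 in 14.5%, GATA in 17.95% and CTCF, the insulator protein, in 3.95%, against 1.07% CTCF in bound-and-open sites. Bound-and-open sites were thus near open-unbound sites in AP-1 and GATA matches, and the closed class had fewer of both. GGGCGG, the box read by SP and KLF factors, was in 24.6% of bound-and-open and 11.2% of bound-and-closed sites, but in 9.95% and 10.3% of those outside promoters. At gene starts AP-1 matches were in 4.14%, GATA in 5.41%, NFY in 6.20%, CTCF in 0.331% and GGGCGG in 40.0% of the windows. A match is a description of letters and not evidence of a bound factor, and matches were counted on both strands. These shares were not tested over samples.

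**Figure D4:**
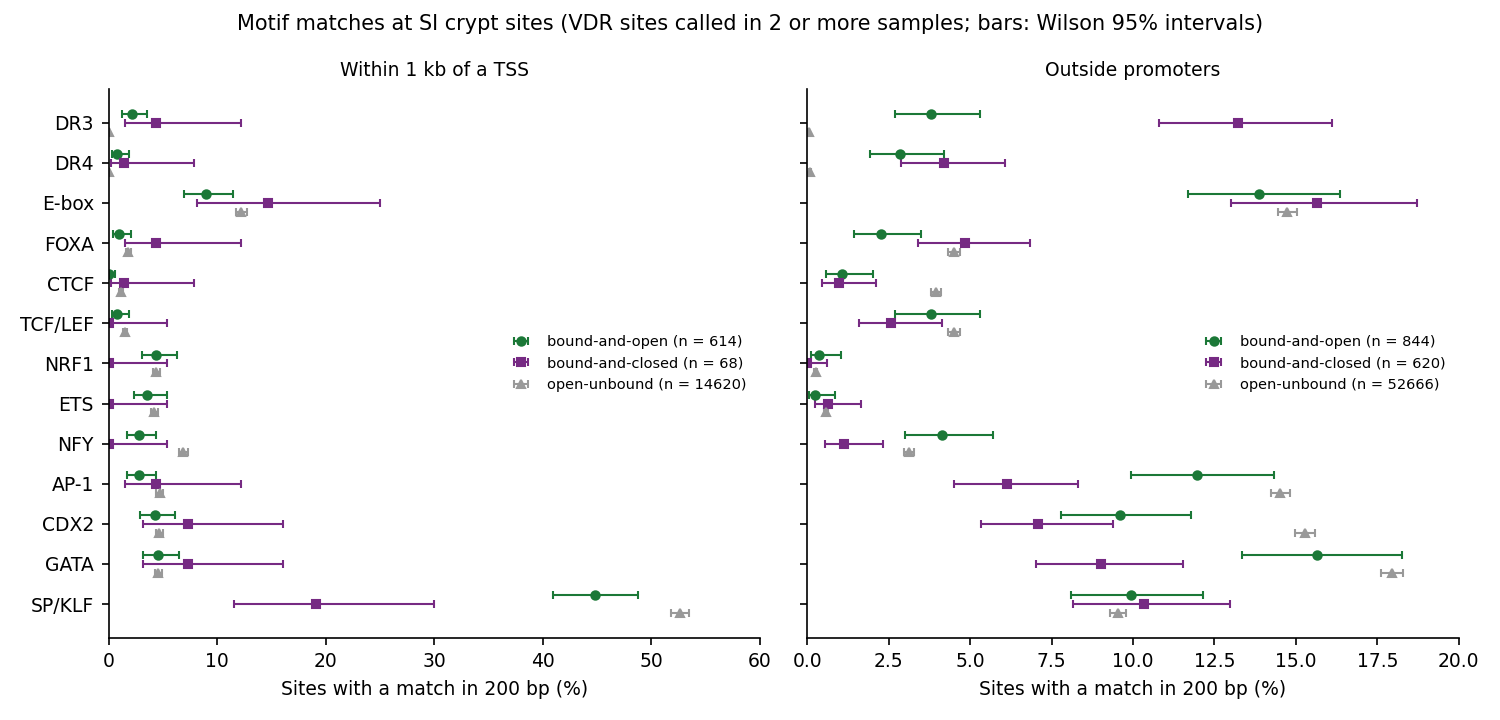
Share of SI crypt sites (%) with a motif match in 200 bp, within 1 kb of a TSS (left) and outside promoters (right), for bound-and-open (circles) and bound-and-closed sites (squares) of at least 2 VDR samples and for open-unbound ATAC sites (triangles); bars are Wilson 95% intervals. Outside promoters DR3 was in 3.79% of bound-and-open, 13.2% of bound-and-closed and 0.0418% of open-unbound sites.

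Most closed sites lay well outside ATAC peaks. Of the 6305 bound-and-closed sites 6.04% had an ATAC peak within 100 bp, 22.3% within 1000 bp and 62.3% within 10000 bp. Only 3.82% overlapped a peak called in a single SI crypt ATAC sample, and 19.1% were open in SI villus or colon. Among those of at least 2 VDR samples these shares were 6.69%, 32.8%, 74.6%, 4.797% and 28.6%.

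The same positions were bound in the other compartments. Of bound-and-open sites 80.2% overlapped a VDR peak of SI villus and 72.5% of colon, against 51.1% and 38.7% of bound-and-closed sites. Among sites of at least 2 SI crypt samples the shares with SI villus were 96.8% and 87.6%, and with colon 92.4% and 76.3%. The 116 bound-and-closed sites of all 4 samples were bound in SI villus in 98.3% and open there in 33.6%. Recurrent closed sites of the crypt were thus mostly bound again in villus, and most were outside ATAC peaks there too. Binding in these compartments came from other libraries, but the labels do not say whether crypt and villus samples came from the same mice.

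From the side of open chromatin, VDR was found more often at strong ATAC peaks. VDR-bound ATAC peaks made up 9.97% of the pooled list, or 5.41% without replicate-1-only VDR sites. Of ATAC peaks in the top 10% by -log10 q 23.4% were bound, against 4.63% in the bottom 10%, and without replicate-1-only sites the shares were 9.73% and 2.61%. The top 10% had a median width of 470 bp, against 130 bp in the bottom 10%, and the part of width in a 1 bp overlap was not tested. Without replicate-1-only sites 9.69% of promoter peaks and 9.80% of other peaks in the top 10% were bound. In the bottom 10% the promoter share was higher, with 3.92% of promoter peaks and 2.38% of other peaks bound. Over the whole list, without replicate-1-only sites, 7.98% of promoter peaks were bound, against 7.60% of exonic, 4.49% of intronic and 4.44% of intergenic peaks. Promoters held 57.6%, 61.4% and 56.9% of VDR-bound ATAC peaks in ATAC replicates 1 to 3, against 25.5%, 33.3% and 24.7% of unbound ones. The difference was 30.8 ± 2.32 percentage points (SD, n = 3; exact sign-flip p = 0.25, the smallest that 3 samples allow, adjusted p = 0.393). All 3 ATAC samples were set against the same pooled VDR list, and without replicate-1-only VDR sites the difference was 9.0 points.

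The crypt was set against SI villus and colon. VDR-bound shares were 11.1%, 14.2% and 10.4% of ATAC peaks in the SI crypt samples, against 18.7%, 18.7% and 17.1% in SI villus and 29.2%, 26.7% and 25.9% in colon. In such bulk preparations fewer bound cells and less binding per cell cannot be told apart. Crypt values did not overlap those of either compartment, and the differences were -6.24 and -15.4 percentage points (exact two-sided permutation p = 0.1 each, the smallest that 3 against 3 allow; adjusted p = 0.229). The pooled VDR lists held 12702 peaks in SI crypt, 18078 in SI villus and 22882 in colon, and the part of list size in these shares was not tested. The open-minus-closed promoter difference averaged 26.6 points in SI crypt and 28.7 ± 13.7 points in SI villus (SD, n = 4 each; exact permutation p = 0.886), and 22.2 ± 4.82 points in colon (SD, n = 4; exact permutation p = 0.943). The DR3 difference averaged -3.93 points in SI crypt, -3.05 ± 1.18 points in SI villus (SD, n = 4; exact permutation p = 0.514) and -2.29 ± 1.63 points in colon (SD, n = 4; exact permutation p = 0.314). These tests did not pair samples by replicate number, and the paired form is given further below. Neither pattern was shown to differ between compartments. Without crypt replicate 1 the promoter difference was 12.5 points lower in crypt than in villus and 6.01 points lower than in colon (differences of -12.5 and -6.01).

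The strongest open-unbound sites had no VDR peak in any SI crypt sample. Ripk2, a kinase of innate immune signalling, had ATAC folds of 14.7, 15.2 and 12.5 in replicates 1 to 3 at its promoter. An intron of Sos1, an exchange factor for Ras, had ATAC folds of 22.5, 20.2 and 18.5. Among the strongest 10 were the promoters of Ripk2, Stard9, Inpp5f, Gm10010 and 2410002I01Rik and sites that lay nearest to G6pd2, Sos1, Igf2bp3 and 9530002B09Rik. The highest, with folds of 33.3, 30.5 and 32.2, lay far from any gene start, so the name G6pd2 gives only the nearest one. Open-unbound sites were called by all 3 ATAC samples in 30.7% of cases, against 59.4% of VDR-bound ATAC sites. Pde4d, a long gene of 1504 kb, had 19 open-unbound sites, the most of any gene, and no VDR site.

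The strongest bound-and-open sites joined distal elements and promoters. The strongest lay in an intron of Ptprj, a receptor-type tyrosine phosphatase, at -9.04 kb from a TSS (minus marks upstream), with a pooled -log10 q of 1752. Its VDR fold enrichment was 37.7, 41.5, 21.7 and 26.7 in replicates 1 to 4, while its ATAC peak (fold 4.64) appeared only in the pooled list and in none of the 3 samples. The Crat promoter, of carnitine acetyltransferase, had VDR folds of 33.9, 37.3, 20.5 and 23.0 and ATAC folds of 9.26, 5.44 and 8.48. Slc30a10, a manganese exporter, had a site at 47.9 kb downstream of its TSS with VDR folds of 24.3, 38.1, 24.3 and 29.4 and ATAC folds of 10.3, 13.3 and 12.7. So Ptprj had the highest pooled -log10 q with no ATAC peak in a single sample, and Crat and Slc30a10 were bound and open in every sample. Others of the strongest 10 were the distal sites nearest to Bcas1 and of Slc37a2, a sugar phosphate transporter, and the promoters of Nsun5, an rRNA methyltransferase, Ppox, the heme synthesis oxidase, Agpat1, an acyltransferase of phosphatidic acid synthesis, Pcbp2, an RNA-binding protein, and Phgdh, the first enzyme of serine synthesis. All 10 were called by the 4 VDR samples.

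Among the strongest bound-and-closed sites, the site 8.95 kb into Ppard, the nuclear receptor for fatty acids, had VDR folds of 12.5, 24.6, 6.42 and 8.36 and held the exact DR3 printed above. The site 76.4 kb from Cebpb, a bZIP transcription factor gene, also held an exact DR3 and had VDR folds of 28.5, 25.0, 18.6 and 19.95. Neither overlapped an ATAC peak of SI crypt or of SI villus. The other sites of the strongest 10 lay nearest to Arhgap26, 2200002K05Rik, Bcl9l (a coactivator of beta-catenin), Maf, Klhl35, Upk3a, Slc30a10 and Meox1. The Arhgap26 site had the highest pooled -log10 q of the class, 553. Each of these 10 was called by all 4 VDR samples, and only the Maf site overlapped a peak of a single ATAC sample (fold 4.28 in replicate 3). In SI villus 4 of the 10 lay in an ATAC peak. They were thus as recurrent as the strongest open sites.

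Some genes carried both classes. Around Slc30a10, the site at 29.0 kb was open (VDR folds 12.9, 11.8 and 13.3 in replicates 2 to 4, not called in replicate 1), the site at 31.7 kb was closed (20.4, 21.6, 8.91 and 15.3) and the site at 47.9 kb was open. Within 10 kb of its TSS it had 6 closed and 0 open VDR sites, of which 3 closed sites were not called by replicate 1 alone. Ppard had an open site at -2.25 kb from a TSS, with VDR folds of 13.4, 18.6, 11.6 and 14.3, beside the closed site in its intron. Treh, the trehalase of the brush border, had a closed site at -3.02 kb with folds of 9.41, 20.7, 8.63 and 12.4, and an open promoter site called in replicates 1 (11.2) and 4 (4.88). At all 3 genes a recurrent VDR peak outside ATAC peaks lay within 50 kb of a bound and open one.

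Sites were linked to genes within 10 kb of a TSS. Of the 22367 genes 3985 (17.8%) had a bound-and-open site and 1997 (8.93%) a bound-and-closed site, 640 had both, 9687 (43.3%) had open-unbound sites and no VDR site, and 7338 (32.8%) had no site. Without replicate-1-only sites the counts were 1883 (8.42%) and 1392 (6.22%), and with sites of at least 2 samples they were 871 (3.89%) and 285 (1.27%). Of the 3345 genes with bound-and-open sites alone, 1771 had only open-unbound sites once replicate-1-only sites were left out. The promoter was open in 94.9% of genes with bound-and-open sites alone, 75.3% of genes with bound-and-closed sites alone and 78.4% of genes with open-unbound sites alone, against 7.51% of genes with no site. Genes of the closed class thus mostly had an open promoter elsewhere in the gene.

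Enterocyte genes were the list with most bound-and-closed sites. Of 20 genes 15 had a bound-and-closed site and 9 a bound-and-open site, beside 8.93% and 17.8% of all genes, and 14 and 7 without replicate-1-only sites, beside 6.22% and 8.42%. With sites of at least 2 samples the counts were 7 and 4, beside 1.27% and 3.89%. The 40 closed sites lay 21 in introns, 7 at promoters, 6 in exons and 6 between genes, and 34 overlapped a VDR peak of SI villus while 8 were open there. None held an exact DR3. They were low, with a median fold of 2.305 over the local background, and 19 were called in no single sample. Slc5a1, the sodium-glucose cotransporter of the brush border, had 10 closed sites, the most of any gene, with pooled folds of 1.68 to 2.34. Of its 2 open sites the intronic one had VDR folds of 5.11, 2.58 and 2.53 in replicates 1, 3 and 4, and the promoter one was called in replicate 1 alone (8.91). Anpep, an aminopeptidase, and Apob, the chylomicron apolipoprotein, had 4 closed sites each, Alpi and Vil1 had 3 each, and Treh carried the single strong one. The enterocyte list thus held many low closed peaks across gene bodies and few strong ones.

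**Figure D5:**
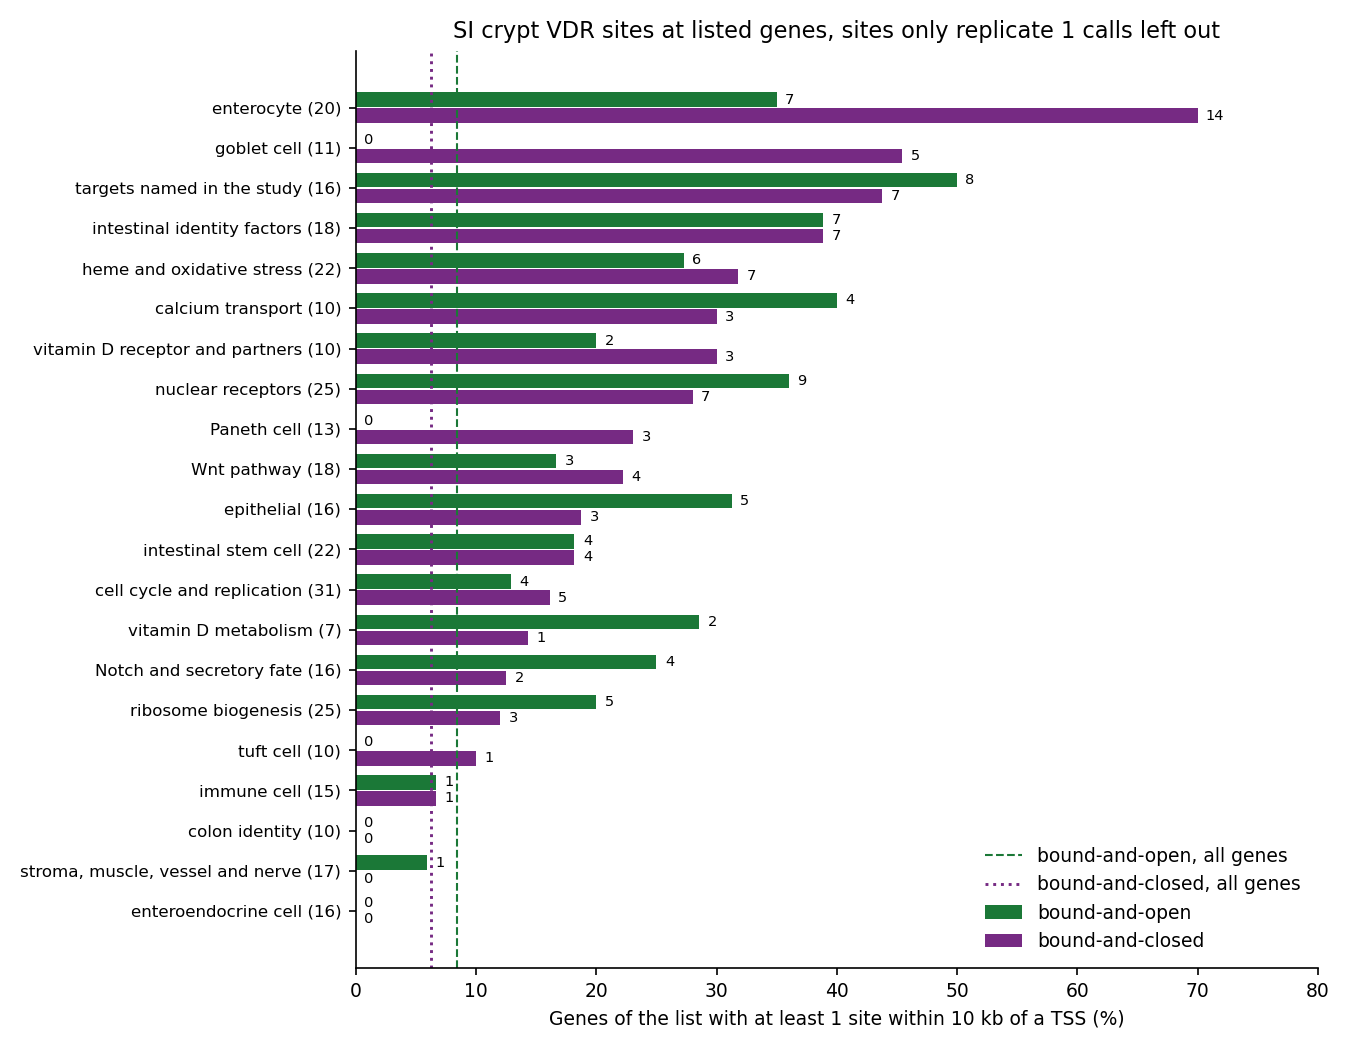
Percentage of the genes of each list with a bound-and-open (upper bar) or bound-and-closed (lower bar) VDR site within 10 kb of a TSS, with replicate-1-only sites left out; numbers beside bars are gene counts, list sizes are in parentheses, and the lines mark all genes (8.42% and 6.22%). Enterocyte genes had 7 of 20 and 14 of 20, and enteroendocrine genes had 0 of 16 in both classes.

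Of the 4 lists of secretory cell genes, 3 had more genes with closed than with open sites, beside 17.8% (bound-and-open) and 8.93% (bound-and-closed) of all genes. Goblet cell genes had bound-and-open sites at 1 of 11 and bound-and-closed sites at 5 of 11: Muc2 and Fcgbp, of the mucus layer, and Muc13, Tff3 and Zg16. Of their 8 closed sites 5 were exonic, and Muc13 had the strongest, in an exon, with VDR folds of 10.0, 5.20, 2.54 and 2.72. Paneth cell genes had 0 and 3 of 13 (Reg3b, Defa24 and Defa17), tuft cell genes 0 and 1 of 10, and enteroendocrine genes 0 and 0 of 16. Of the 16 enteroendocrine genes 11 had open-unbound sites and no VDR site. In the goblet cell list Muc13 thus had a site called in every sample, and Zg16 had one called in replicates 1 (5.12) and 4 (3.23).

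Of the stem cell genes 13 of 22 had open-unbound sites and no VDR site, beside 43.3% of all genes. Bound-and-open sites were at 6 of 22 and bound-and-closed sites at 5 of 22, beside 17.8% and 8.93% of all genes, and with sites of at least 2 samples at 1 (Rgmb) and 1 (Msi1), beside 3.89% and 1.27%. Lgr5, Olfm4, Ascl2, Ephb2 and Ephb3 were among those with no VDR site. Rgmb, a coreceptor of bone morphogenetic proteins, had an open promoter site called in replicates 1 (5.57) and 4 (3.16), and Msi1, an RNA-binding protein, had a closed promoter site in the same replicates (15.3 and 7.92). Wnt pathway genes had 4 and 4 of 18. Among them Lrp5, a Wnt coreceptor, had an open promoter site with an exact DR3 called in replicates 1 and 2 (10.7 and 7.64), and Myc had 3 closed sites, none in 2 samples. Notch and secretory fate genes had 6 and 5 of 16, and 4 and 2 without replicate-1-only sites, with sites of at least 2 samples at 4 open (Dll4, Rbpj, Hes1 and Atoh1) and 1 closed (Hes6). Hes1, the Notch effector, had VDR folds of 11.7, 9.07, 5.30 and 7.41 at its open site, and Hes6 had 11.1, 6.09, 5.83 and 5.61 at its closed one. Cell cycle genes had 9 and 8 of 31, and ribosome biogenesis genes 6 and 6 of 25. Without replicate-1-only sites these were 4 and 5 of 31 and 5 and 3 of 25, beside 8.42% and 6.22% of all genes.

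Of the vitamin D receptor and its partners 3 of 10 genes had a bound-and-open and 3 a bound-and-closed site, and of vitamin D metabolism genes 2 and 1 of 7, beside 17.8% and 8.93% of all genes. The Vdr gene had an open site at -19.3 kb from a TSS, with VDR folds of 12.7, 12.5, 8.79 and 10.7, and lower sites within 10 kb, 3 open and 2 closed, none called in 2 samples. Its distal site was called in every sample and its nearby ones were not. Ncor1, the nuclear receptor corepressor, was the nearest gene of an open site at -36.3 kb from a TSS with VDR folds of 31.8, 32.1, 17.8 and 23.1. This site, with the DR4 printed above, lay upstream in an intron that need not be one of Ncor1. Rxra, a dimer partner of VDR, had a closed exonic site at 49.4 kb with folds of 6.13, 8.94 and 5.92 in replicates 1, 2 and 4. Cyp24a1, which breaks down 1,25(OH)2D3, had an open promoter site with folds of 8.48, 16.3, 3.62 and 2.07 and ATAC folds of 10.3, 13.1 and 12.7. The Cyp24a1 promoter was thus open in all 3 ATAC samples, and its VDR folds ranged from 2.07 to 16.3. Folds are ratios within a library, and the part of the libraries in this range was not tested. The strong site nearest to Bcas1, described above, was not counted for Cyp24a1, since gene links ended at 10 kb from a TSS. That site spanned chr2:170287049-170287594, and the Cyp24a1 promoter window printed above was chr2:170322815-170323014. The Bcas1 site had a pooled -log10 q of 835 and VDR folds of 23.1, 28.1, 15.2 and 17.4 in replicates 1 to 4. The study lists VDR peaks in downstream enhancers of Cyp24a1. The Bcas1 site may be among them, as its name gives only the nearest gene start.

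Calcium transport genes had bound-and-open sites at 6 of 10 and bound-and-closed sites at 4 of 10, beside 17.8% and 8.93% of all genes. Without replicate-1-only sites they had 4 and 3, beside 8.42% and 6.22%. S100g, the cytosolic calcium buffer, had an open intronic site with VDR folds of 4.22, 4.61 and 3.70 in replicates 1, 3 and 4. The promoter of Atp2b1, the calcium pump, was open and bound in replicates 1 and 2 (8.18 and 8.11). Trpv6, the apical calcium channel, had an open site at -1.92 kb called only in replicate 2 (8.76) and a closed site at -3.95 kb called only in replicate 1 (4.72). Cldn15, a pore-forming claudin, had 5 closed sites and 1 open site. Its strongest closed site, at the promoter, had folds of 5.23, 11.7 and 4.05 in replicates 1, 2 and 4, and the intronic one printed above had 3.904 and 4.90 in replicates 1 and 2. Trpv6 sites were called in single samples and Cldn15 had recurrent closed sites.

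The list of study targets was drawn up with results of these samples known, so its counts are no independent evidence. Besides genes that the study discusses, it holds Crat, Ptprj and Nsun5. The study's main text does not name these, and they were among the strongest bound-and-open sites above. In this list bound-and-open sites were at 12 of 16 and bound-and-closed sites at 11 of 16, beside 17.8% and 8.93% of all genes. Without replicate-1-only sites they were at 8 and 7, beside 8.42% and 6.22%. Bach1, a heme-sensing repressor, had an open site at -17.5 kb with folds of 23.0, 15.9 and 20.4 in replicates 2 to 4 and no call in replicate 1, so not all strong sites were in that sample. Shroom1 had a closed site in replicates 2 to 4 (5.81, 5.67 and 7.08). Intestinal identity factors had 10 and 10 of 18, and 7 and 7 without replicate-1-only sites, with recurrent open sites at Cdx2 and Creb3l3 and recurrent closed sites at Gata6 and Elf3. The Cdx2 promoter had VDR folds of 5.18 and 8.04 in replicates 1 and 2. Nuclear receptors had 10 and 7 of 25, and 9 and 7 without those sites, with Nr1i2, the xenobiotic receptor, closed in replicates 1 and 2 (13.2 and 9.70) and Esrra open in all 4 (8.48, 7.84, 5.04 and 3.54). Heme and oxidative stress genes had 11 and 7 of 22, and 6 and 7 without them. Ppox was their strongest, with folds of 25.4, 31.8, 17.1 and 17.4 at an open promoter, and both ferritin genes had closed sites, Fth1 with folds of 5.69, 3.94 and 3.87 in replicates 1, 3 and 4 and Ftl1 with 6.41 and 3.93 in replicates 1 and 4.

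Large gene families were counted beside the 17.8% and 8.93% of all genes, or 8.42% and 6.22% without replicate-1-only sites. Clustered histone genes had bound-and-open sites at 31 of 67 (46.3%) and bound-and-closed sites at 3, and 23 and 3 without replicate-1-only sites. Cytosolic ribosomal protein genes had 49 and 42 of 144, and 21 and 32 without them. Mitochondrial ribosomal protein genes had 17 and 4 of 77 (22.1% and 5.19%), and 9 and 2 without them. Solute carriers had 81 and 50 of 355 (22.8% and 14.1%), and 39 and 32 without them. Olfactory receptor genes had 3 and 18 of 1113, and 1 and 9 without them, and Hox genes 0 and 0 of 40. Histone genes lie in clusters, so 1 site can be linked to several of them, and ribosomal protein, histone and defensin genes have near-identical copies among which reads may be shared.

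The lists of other cells served as a check. Epithelial genes had 10 bound-and-open and 6 bound-and-closed of 16, beside 17.8% and 8.93% of all genes, and 5 and 3 without replicate-1-only sites, beside 8.42% and 6.22%. Immune genes had 1 bound-and-open and 2 bound-and-closed of 15, and 9 had no site. With sites of at least 2 samples immune genes had 1 and 1 of 15 (6.67% each), beside 3.89% and 1.27% of all genes. The Ms4a1 and Itgam sites, near a B cell and a myeloid marker, were called in 3 samples each (18.2, 9.84 and 14.1 in replicates 2 to 4, and 6.50, 7.63 and 9.46 in replicates 1, 2 and 4). Genes of stroma, muscle, vessel and nerve had 1 and 0 of 17, and colon identity genes 0 and 0 of 10. The stroma list had open-unbound sites at 10 of 17 genes and the colon list at 5 of 10, and the single bound gene of the stroma list, Col1a1, had an open intergenic site with VDR folds of 9.27, 9.02 and 7.05 in replicates 1, 2 and 4. Recurrent VDR sites near these genes of other cells were thus few, but in the short immune list their shares were not below those of all genes.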

How the data were processed

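VDR ChIP-seq (4 replicates a compartment) and ATAC-seq (3 replicates a compartment) of SI crypt, SI villus and colon were taken as deposited peak lists, and read counts were not analysed here. Per the study's methods, with versions from the submitters' processing notes, reads were aligned to mm9 with Bowtie2 2.2.6, alignments of a compartment were merged with SAMtools 0.1.19, and per the file headers peaks were called by the authors with MACS2 2.1.0.20150731, without an input library, for each sample and for the merged samples. Those notes also name cutadapt 1.9.1, Picard 2.18.27 and bedtools 2.17.0, with no role or order. The deposited tables hold the pileup signal at the summit, the fold enrichment (a ratio to the local background of the same library), and p-values and q-values as -log10. Depth was read from the file headers, and peaks called with fewer unique fragments are less certain.

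The authors' processed intervals were used, with -log10 q and fold of the MACS2 peak at the same summit. Sites were classed on the pooled SI crypt lists by 1 bp overlap and set against the protein-coding genes of the mm9 annotation: promoters within 1 kb of a TSS, gene links within 10 kb, and base composition and motifs in 200 bp at the summit. Shares have 95% Wilson intervals. Samples were compared with exact permutation and sign-flip tests, adjusted by Benjamini-Hochberg over 11 tests. Scripts ran in Python 3.11.15 (with pysam 0.24.0 for sequence, scipy 1.17.1 and numpy 2.4.6 for statistics and matplotlib 3.10.9 for plots) and were tested on simulated data. The gene lists held 335 entries, of which 331 matched by symbol and 2 by an older symbol. The members and lists were chosen with earlier results of these data known. Named genes are those of the lists, the nearest genes of the 10 strongest sites of each class and the 10 genes with most sites of each class, and other families are given as counts. Some genes that this rule names are not reported here.

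Replicate numbers were checked as pairs over sites shared by compartments. Same-numbered SI crypt and SI villus VDR samples deviated together (correlations of 0.314, 0.122, 0.359 and 0.245 over 8347 sites, each highest for its own number). The main tests between compartments were unpaired all the same, and pairing by number entered only as an alternative, the replicate block. SI crypt and colon VDR samples (-0.00595 to 0.145) and the ATAC samples (-0.0359 to 0.0383) were not each highest for their own number. The replicate block paired them by number as well. Alternatives covered q thresholds, recurrence, overlap rules, gene distance, peak number and leaving out each replicate. For the counts, only the sites that a single replicate called were left out.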

Additional observations from a re-analysis of the deposited data

Results flagged for a closer look

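Replicate 1 of the SI crypt VDR ChIP-seq lay far from the other 3 replicates in 8 of the 16 measures looked at, while chance flags about 1 in 20. It had 13381 peaks, of which 5461 were bound-and-open and 7920 bound-and-closed. Promoters held 68.5% of its bound-and-open peaks, and its promoter share was 57.8 percentage points higher in bound-and-open than in bound-and-closed peaks. Its median CpG ratio was 0.782 in bound-and-open and 0.423 in bound-and-closed peaks, a difference of 0.359. The measures are not independent of each other, and the part of its lower depth and higher redundancy was not tested.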

How the results depend on the processing

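Of the comparisons over samples, 114 alternative values had the same direction and side of the threshold and 10 changed direction, none of them past the threshold. The promoter difference of SI crypt minus SI villus was 2.21 with a VDR -log10 q of at least 5 and 3.896 with the same number of strongest peaks in every sample, and leaving out 1 replicate it ranged from -12.5 to 2.56. For SI crypt minus colon it ranged from -6.01 (without SI crypt replicate 1) to 9.08. The DR3 difference of SI crypt minus SI villus was 0.693 with the same number of peaks. The CpG difference between the classes was -0.0129 outside promoters. The causes were not tested.

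With the replicate block, which pairs samples by number, the differences were the same and no call changed: exact sign-flip p was 0.875 for both promoter differences (-2.13 and 4.39), 0.25 and 0.125 for the DR3 differences (-0.876 and -1.64), and 0.25 for both VDR-bound shares (-6.24 and -15.4).

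Of the counts, 68 alternative values stayed near the main one and 36 did not. Leaving out replicate-1-only sites gave 3564 bound-and-open and 3783 bound-and-closed sites, 48.5% open and 1883 genes with a bound-and-open site. A VDR -log10 q of at least 5 gave 2868 bound-and-closed sites, 61.1% open, and 1074 genes with a bound-and-closed site, 796 of them with no bound-and-open one. Sites of at least 2 VDR samples numbered 1458 and 688 (67.9% open), with 871 and 285 genes, 251 of them with closed sites alone. ATAC sites of at least 2 samples left 33719 open-unbound sites and 40.9% open, an ATAC -log10 q of at least 5 gave 45.9% open, and MACS2's own intervals 51.3%. Requiring an ATAC peak over 50% of the VDR peak gave 3466 bound-and-open sites (27.3%), 2276 genes with them and 3514 with bound-and-closed sites, 3066 of those alone. A VDR midpoint inside the ATAC peak gave 3990 (31.4%), 2472, 3379 and 2870. Genes with bound-and-closed sites numbered 851 (713 alone) within 2 kb and 3415 (2086 alone) within 50 kb. Leaving out, for each replicate in turn, the sites that only it called gave 3564 to 6369 bound-and-open and 3783 to 6274 bound-and-closed sites. Of the sites 48.5% to 50.4% were open, and 1883 to 3982 genes had a bound-and-open site. The lowest of each was for replicate 1, which repeats the values without replicate-1-only sites and is counted again among the 68 and 36. The pooled list was not called anew without any replicate.

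Precision was limited by 4 and 3 samples a compartment and by peak lists that give no value where no peak was called. Closed means outside the called ATAC peaks and no more.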
